A study of Mus musculus with 3 samples.

Results

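The 6 genes described here encode transcription factors that work together in developing T cells: the RUNX factors Runx1, Runx2 and Runx3, their shared partner Cbfb, and the factors Gata3 and Myb. They were found by gene name in a list of crosslink positions of the RNA-binding protein ZFP36L1, in all segments of each gene, and they are 6 of 14592 gene names in that list. The list comes from individual-nucleotide resolution crosslinking and immunoprecipitation (iCLIP), in which ultraviolet light (300 mJ/cm2) fixes a protein to the RNA it touches and the end of each copied fragment marks the base. All cells were total naive thymocytes of C57BL/6JBabr mice. There were 2 WT libraries, each from its own experiment, and 1 library of a double conditional knockout of Zfp36l1 and Zfp36l2 (DCKO). The sources used here do not give the promoter that drives the recombinase, the age of the mice or any pooling of animals. The antibody is named for Brf1 and Brf2, older names of ZFP36L1 and ZFP36L2, so whether a position belongs to ZFP36L1 or ZFP36L2 cannot be told from the list. Nor can positions that belong to neither protein be told apart, since the list gives no separate value for the DCKO library.

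Each position has 1 value with no library named, so a comparison of WT with DCKO was not possible and the values carry no replicate error. The sources used here do not say which libraries were combined. It held 462392 positions with a summed count of 814493, of which the 6 genes had 1403 positions and 2436 counts (0.299%). Counts were low: 45.0% of the positions in these genes had a count of 1 and 47.7% a count of 2. Positions that the authors gave an FDR below 0.05 are called sites, and the 6 genes had 588 of 141986 sites. All intervals are 95% intervals of counting error only (Wilson for shares, exact Poisson for counts per kb, exact binomial for ratios), and neighbouring positions are not independent. No RNA level was measured alongside, so more binding and more RNA cannot be told apart. The comparison values are those of 11695 protein-coding genes of the same list. Thymocyte markers were present, with 11 of 12 listed (all but Ptcra) and a median of 294.5 counts. Markers of B cells, myeloid cells, erythroid cells, NK cells, mast cells and thymic epithelium had 0 to 16 counts each. Among 5 stromal and endothelial markers counts ran from 0 to 301, the highest in Pecam1.

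RUNX proteins bind DNA through a shared domain and need CBFB, which does not touch DNA itself, to bind firmly. In the thymus RUNX1 and RUNX3 control the choice between CD4 and CD8 fates, GATA3 is needed for early T cell stages and for CD4 T cells, and MYB supports thymocytes through rearrangement of the T cell receptor genes. RUNX2 is best known from bone. ZFP36L1 binds AU-rich elements in the 3′ UTR of mRNAs, of which TATTTA, with U for T in the RNA, is the core, and brings in the enzymes that shorten the poly(A) tail. A spliced mRNA and its precursor both carry the 3′ UTR, whereas an intron is found mainly in RNA not yet spliced or as excised intron. Which kind of RNA carried the signal in these data was not measured.

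The 6 genes differed widely in where their counts lay. Gata3 had 67.3% of its 223 counts in the 3′ UTR (60.9 to 73.1) and 24.2% in introns. Runx1 had the opposite order, with 8.49% of 1366 counts in the 3′ UTR (7.13 to 10.1) and 90.6% in introns. Cbfb lay between them with 27.3% of 209 counts in the 3′ UTR (21.7 to 33.7), and Myb with 15.3% of 576 (12.6 to 18.4). Runx2 had only 37 counts, 18.9% in the 3′ UTR (9.48 to 34.2), and Runx3 25, 16% in the 3′ UTR (6.40 to 34.7). The intervals of Gata3 overlapped with none of the others, and those of Myb and Runx1 were apart as well. Over all protein-coding genes 13.3% of counts lay in the 3′ UTR. Among 2838 genes with at least 50 counts the median share was 7.28% (interquartile range 1.37 to 18.75), and 97% of these genes had a lower share than Gata3, 83.9% than Cbfb, 69.3% than Myb and 53.8% than Runx1.

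**Figure D1:**
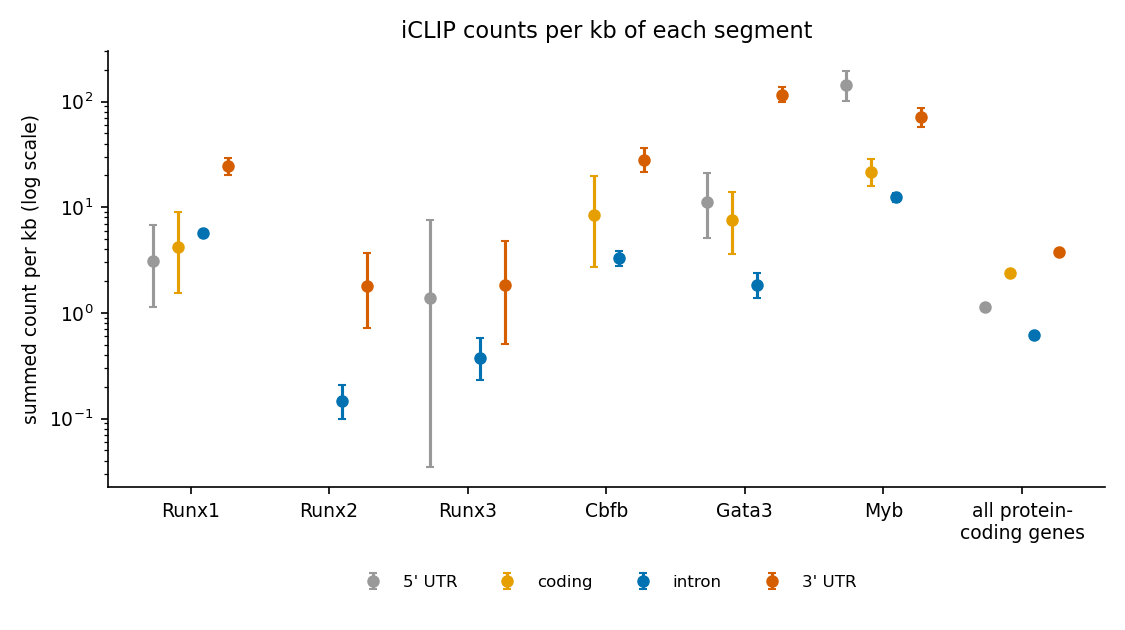
Summed count per kb of each annotated segment, on a log axis, for the 6 genes and for all protein-coding genes, with exact Poisson 95% intervals; segments with a count of 0 are not drawn. The 3′ UTR point lies above the intron point in every gene, and Gata3 and Myb have the highest 3′ UTR densities, 116 and 71.1 counts per kb.

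Once segment length was taken into account, the value for the 3′ UTR was above that for the introns in each of the 6 genes, although for Runx3 the intervals overlapped. Gata3 had 116 counts per kb of 3′ UTR (98.3 to 136) against 1.83 per kb of intron. Myb had 71.1 (57.0 to 87.6) against 12.4, Cbfb 28.3 (21.4 to 36.6) against 3.31 and Runx1 24.6 (20.3 to 29.5) against 5.72. Runx3, with 1.85 (0.505 to 4.75) against 0.376 (0.230 to 0.581), and Runx2, with 1.79 (0.721 to 3.69) against 0.147, were the sparsest. By 3′ UTR counts per kb Gata3 ranked 40 and Myb 89 among 11695 genes, Cbfb and Runx1 ranked 337 and 406, and Runx3 and Runx2 ranked 3710 and 3758. Cbfb and Runx1 did not differ beyond their intervals, nor did Runx3 and Runx2. In introns the order changed, with Myb (12.4, 11.2 to 13.7) above Runx1 (5.72, 5.40 to 6.04), Cbfb (3.31, 2.80 to 3.89) and Gata3 (1.83, 1.37 to 2.39). Pooled over all protein-coding genes the values were 3.78 counts per kb of 3′ UTR and 0.618 per kb of intron. Runx2 lay below both, and Runx3 below the second, since its 3′ UTR interval includes the first.

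Sites, the positions past the authors' threshold, were found in the 3′ UTR of 5 of the 6 genes, all but Runx3, against 18% of all protein-coding genes. At a count of at least 2 per site the number was 4. All 6 had at least 1 listed 3′ UTR position, against 46.4% of genes. Intron sites were also present in 5 of 6, against 56.2% of genes. These shares of genes are not adjusted for the count of a gene. That count ran from 25 in Runx3 to 1366 in Runx1, against a median of 14 over all protein-coding genes listed. Of the listed 3′ UTR positions in the 6 genes, 90 of 220 (40.9%, 34.6 to 47.5) were sites, near the 37.7% of all genes. Of the intron positions 477 of 1115 (42.8%, 39.9 to 45.7) were sites, above the 28.5% of all genes, and the share was 49.5% in Runx1, 39.3% in Myb and 14.7% in Cbfb. Of positions that the list labels coding, 7 of 37 were sites (18.9%, against 19.2% of all genes). By GENCODE, 4 of these 7, all in Gata3, lie in a 5′ UTR, and the other 3 are in Myb.

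Per kb, sites in the 6 genes together were 7.14 times as dense in 3′ UTRs as in introns (5.63 to 8.96). This was close to the 6.71 times of all protein-coding genes pooled and to the median of 7.48 over the 1559 genes with a site in both (interquartile range 3.38 to 18.1). The genes were far apart: the ratio was 73.1 in Gata3 (35.1 to 167), 11.7 in Cbfb (4.31 to 29.5), 6.93 in Myb (4.27 to 10.9) and 2.90 in Runx1 (1.79 to 4.46), and 17.4 in Runx2 on 3 and 9 sites (3.03 to 69.7). Without Runx1 the ratio of the other 5 genes was 18.2 (13.3 to 24.6). Sites lie in runs, and when sites within 15 nt of each other were merged the ratio was 3.65 (1.95 to 6.33), from 14 merged 3′ UTR sites and 145 merged intron sites; the same merging gave 3.88 over all genes. After merging Gata3 had 2 3′ UTR clusters and 4 intron clusters, a ratio of 11.4 (1.03 to 79.7) whose interval reached those of Runx1 (3.15, 1.24 to 6.74) and Myb (2.17, 0.249 to 8.75).

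Runx1, the RUNX factor of blood stem cells and thymocytes, had the most counts of the 6 genes. It lies on the minus strand of chromosome 16 (92601466 to 92826149, GRCm38). Of its 775 positions 705 lay in introns, with 1238 counts that ranked 19 among 11695 genes, although per kb they ranked 350. The coding sequence had 3 positions and the 5′ UTR 4, and none of these was a site. The gene has a distal promoter and a proximal one inside intron 2 of the long transcript. Intron 2 of the transcript from the distal promoter, 129851 nt long, held 925 of the intron counts (74.7%), and intron 5 held 167 (13.5%). Intron sequence upstream of the proximal start had 7.23 counts per kb (6.78 to 7.71) against 3.50 (3.12 to 3.92) downstream of it.

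A small part of the Runx1 introns held much of this signal. When sites less than 500 nt apart were joined, the 4 densest stretches covered 1.58% of the intron length and held 161 of the 349 intron sites and 380 counts, 30.7% of the intron counts. The densest, in intron 2 at chr16:92772235-92773506, held 112 site counts. A run of 12 positions inside it (chr16:92772972-92772992) held 92 of them, with 31 at position 92772974, the highest count at any position of the 6 genes. The other 3 lay in intron 2 (chr16:92824016-92824439 with 99 counts and chr16:92806552-92807587 with 81) and in intron 5 (88 counts). For the 3 stretches of intron 2, sequence from the cluster (positions within 15 nt of each other) with the most counts is shown, because they carry 2 kinds of repeat. A position of highest count within the cluster is base 10 of each 30-base run, read 5′ to 3′ on the minus strand of GRCm38 from RefSeq, and capitals here and below mark ATTTA or TATTTA as well as GTGTGT and TTTTTT, except that sequences named by their distance after the stop codon have only the TATTTA copy itself in capitals.
Runx1 intron 2, chr16:92772954-92772983: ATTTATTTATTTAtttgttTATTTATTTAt
Runx1 intron 2, chr16:92824402-92824431: acgtgaaaactggaggaagGTGTGTGTGTg
Runx1 intron 2, chr16:92806690-92806719: gtgtctggGTGTGTGTGTctGTGTGTGTGT

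The first of these sequences is a repeat of the AU-rich core, and the others hold GT repeats. GTGTGT lay within 20 nt on the same strand of 167 of the 349 Runx1 intron sites (47.9%, 42.7 to 53.1), against 12.1% of intron sites of all genes. Only 4.13% of Runx1 intron bases lie so close to GTGTGT. Of the 167 sites, 127 lay in 3 of the 4 stretches, and outside the stretches the share was 40 of 188 (21.3%). TATTTA was near 47 of the 349 sites (13.5%, 10.3 to 17.4), of which 33 lay in the 4 stretches, 12 in the first sequence's stretch and 21 in that of intron 5. TTTTTT was near 10.6% of the sites, against 34.6% in all genes. A repeat of 2 to 4 nt over at least 12 nt lay within 20 nt of 35.0% of the Runx1 intron sites (30.1 to 40.1). The share was 30.6% in the introns of the 6 genes, against 26.9% in all genes. Of the Runx1 intron sites 78.2% lay in sequence that the reference marks as repetitive (soft-masked), against 17.96% of its intron bases and 74.5% of intron sites of all genes. How reads of such sequence were placed by the authors was not tested. A lone position, 92753120 in intron 2, had a count of 16 with no other listed position within 15 nt, in gagagagcgcaagagagagagaaacacaca (chr16:92753100-92753129).

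**Figure D2:**
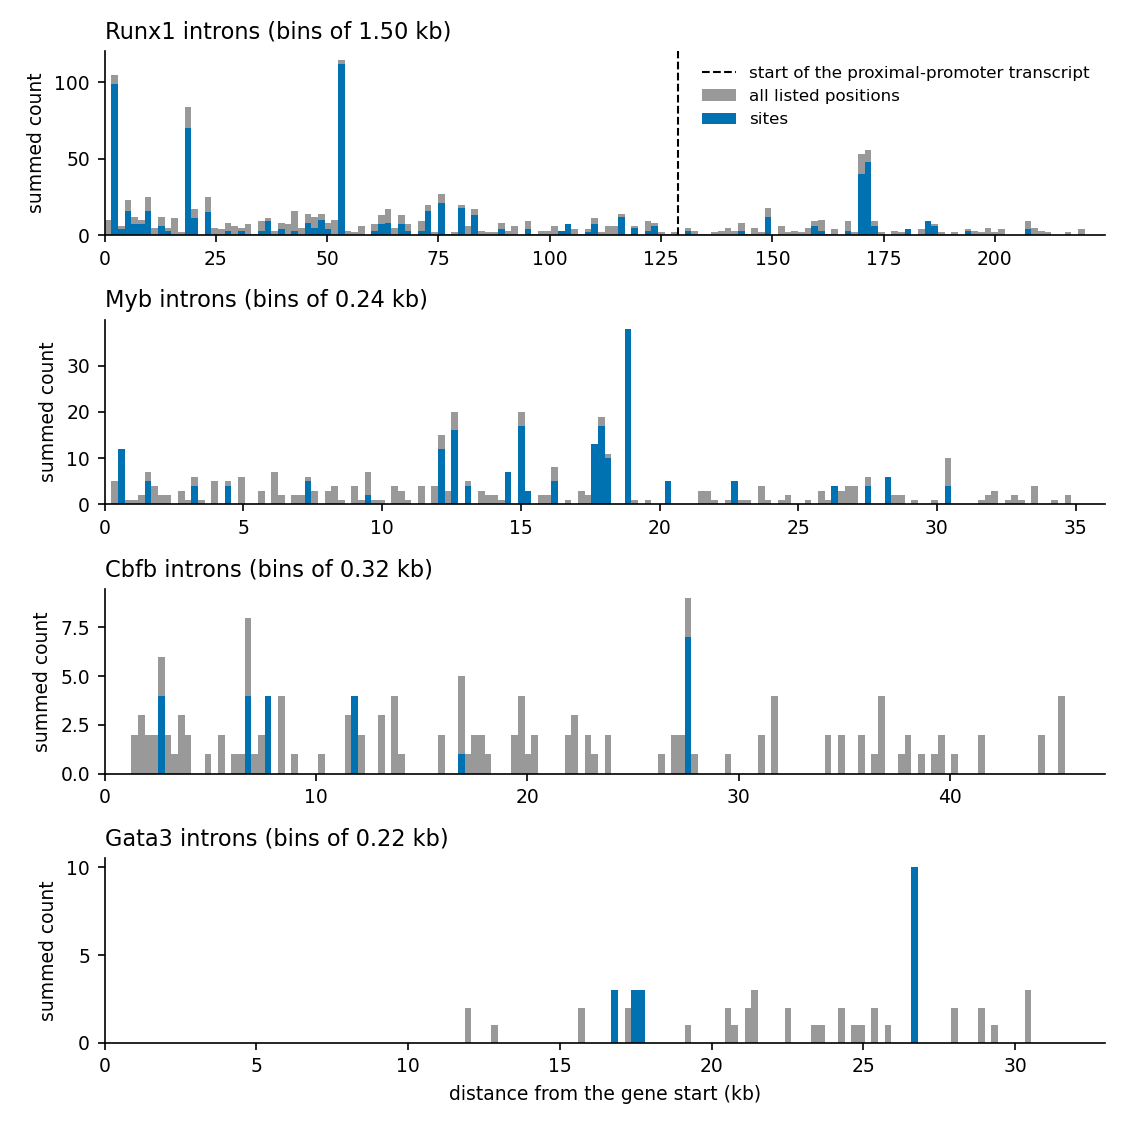
Summed count of intron positions in 150 equal bins along Runx1, Myb, Cbfb and Gata3, by distance from the gene start in kb; grey bars show all listed positions and blue bars the part that are sites. In Runx1 the 4 tall groups of bars are the stretches with 112, 99, 88 and 81 site counts, and the dashed line marks the start of the transcript from the proximal promoter.

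The Runx1 3′ UTR had 63 positions with 116 counts, spread over 30 clusters of positions within 15 nt, and none stood out as in Gata3. The highest cluster had 15 counts in 6 sites, 325 nt after the stop codon, and no position exceeded a count of 4. Its sequence holds GTGTGT and ATTTA but not TATTTA.
Runx1 3′ UTR, chr16:92605310-92605339: ggtcATTTAtttttaaGTGTGTatagattt
Counts lay at both ends of the UTR, where 7 clusters reached at least 6 counts, and no such cluster lay between 682 and 3230 nt after the stop codon. Of 8 TATTTA copies in the Runx1 3′ UTR, 4 had a listed position within 20 nt and 2 had a site, and the 4 copies from 1053 to 2528 nt after the stop had none. The 2 copies with a site, at 594 and 3359 nt, had 8 and 7 counts within 20 nt.
Runx1 3′ UTR, 594 nt after the stop: tacttttttaatTATTTAaatgtacttata
Runx1 3′ UTR, 3359 nt after the stop: caaactcaattgTATTTAtgtatgtaaata
TATTTA was near 7 of the 22 Runx1 3′ UTR sites (31.8%, 16.4 to 52.7), close to the 28.7% of 3′ UTR sites in all genes, and ATTTA near 13 of them (59.1%).

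Runx2, on the minus strand of chromosome 17, and Runx3, on the plus strand of chromosome 4, carried the least signal of the 6 genes, though more than the median of 14 counts over all protein-coding genes listed. Runx2 had 27 positions with 37 counts over introns of 203673 nt and a 3′ UTR of 3904 nt, and no position had a count above 2. Its 3 3′ UTR sites were neighbouring bases with a count of 1 each (44606894 to 44606896), beside a run of T, and none of its 5 TATTTA copies in the 3′ UTR had a listed position within 20 nt. Its introns hold 136 TATTTA copies, of which 1 had a position nearby (0.735%, 0.130 to 4.05). Of the 21 intron positions, 11 lay in intron 5. In the span of Runx2 the list also held 15 positions on the opposite strand, named Supt3 or Gm10497, and 3 of the positions named Runx2 lay outside its GENCODE protein-coding transcripts. Runx3, the RUNX factor of CD8 T cells, had 18 positions with 25 counts and no site, with 14 positions in introns, 3 in the 3′ UTR and 1 in the 5′ UTR. No count in Runx3 exceeded 2. Its single TATTTA copy in the 3′ UTR had no listed position within 20 nt, and binding there was not detectable at 25 counts over the whole gene.

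Cbfb, the partner subunit of all 3 RUNX proteins, lies on the plus strand of chromosome 8 (105170674 to 105217989). Its 3′ UTR had 32 positions with 57 counts and its introns 102 positions with 147 counts, and intron counts were thinly spread, with 77 of 87 clusters made of 1 position. The sites, 8 in the 3′ UTR, fell in 2 clusters near the end of the UTR. One, of 11 counts 1958 nt after the stop codon and 59 nt before the UTR's end, had a highest count of 4 and lay just upstream of the last of the 2 TATTTA copies. The other, of 10 counts, lay 1752 nt after the stop. The TATTTA copy at 1978 nt had 4 counts within 20 nt, and the copy at 1869 nt had none. The run that ends where the TATTTA begins is shown with the copy itself.
Cbfb 3′ UTR, chr8:105217921-105217950: cgttagctttactgtatatttgtatgtttt
Cbfb 3′ UTR, 1978 nt after the stop: atttgtatgtttTATTTActttcacattaa
The strongest intron cluster in Cbfb had 7 counts in a run of T, at chr8:105198324-105198333. TTTTTT was near 9 of its 15 intron sites and near none of its 8 3′ UTR sites. The list also places 8 positions with 13 counts of a small nuclear RNA gene, Gm22063, inside Cbfb on the same strand; they were not counted for Cbfb.

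Gata3 lies on the minus strand of chromosome 2 (9857078 to 9890034), and its 3′ UTR signal was concentrated in a short part near the end. Of 150 counts in the 3′ UTR of 1292 nt, 69 (46%) lay in 22 neighbouring sites of a single cluster, where no position had a count above 6. A further 31 counts (20.7%) lay in 11 positions about 1021 nt after the stop (chr2:9857334-9857366), with 8 at position 9857349, the highest count in the 3′ UTRs of the 6 genes. All 32 Gata3 3′ UTR sites lay in these 2 clusters. The first has no TATTTA within 20 nt, and the second lies just upstream of the last of 3 TATTTA copies, as its sequence shows.
Gata3 3′ UTR, chr2:9857329-9857358: tccttttattattatttttgatggTATTTA
Each of the 3 TATTTA copies in the Gata3 3′ UTR had a listed position within 20 nt. The copy 1036 nt after the stop codon had 22 counts in 7 sites, and those at 245 and 846 nt had 3 counts each and no site.
Gata3 3′ UTR, 245 nt after the stop: actcatattcccTATTTAacagggtctcta
Gata3 3′ UTR, 846 nt after the stop: gttgtataaattTATTTActgctagtgtta
Gata3 3′ UTR, 1036 nt after the stop: tatttttgatggTATTTAttaaatagcttc
TTTTTT was thus near 22 of the 32 sites (68.8%, 51.4 to 82.0) and TATTTA near 7 (21.9%, 11.0 to 38.8). Gata3 introns had 34 positions with 54 counts, of which 10 lay in or just upstream of a run of T (chr2:9863331-9863340). This cluster is in intron 4, 112 nt before its acceptor. None of 15 TATTTA copies in the introns had a listed position nearby. Of 7 positions that the list labels coding, 5 lay in a GENCODE 5′ UTR.

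**Figure D3:**
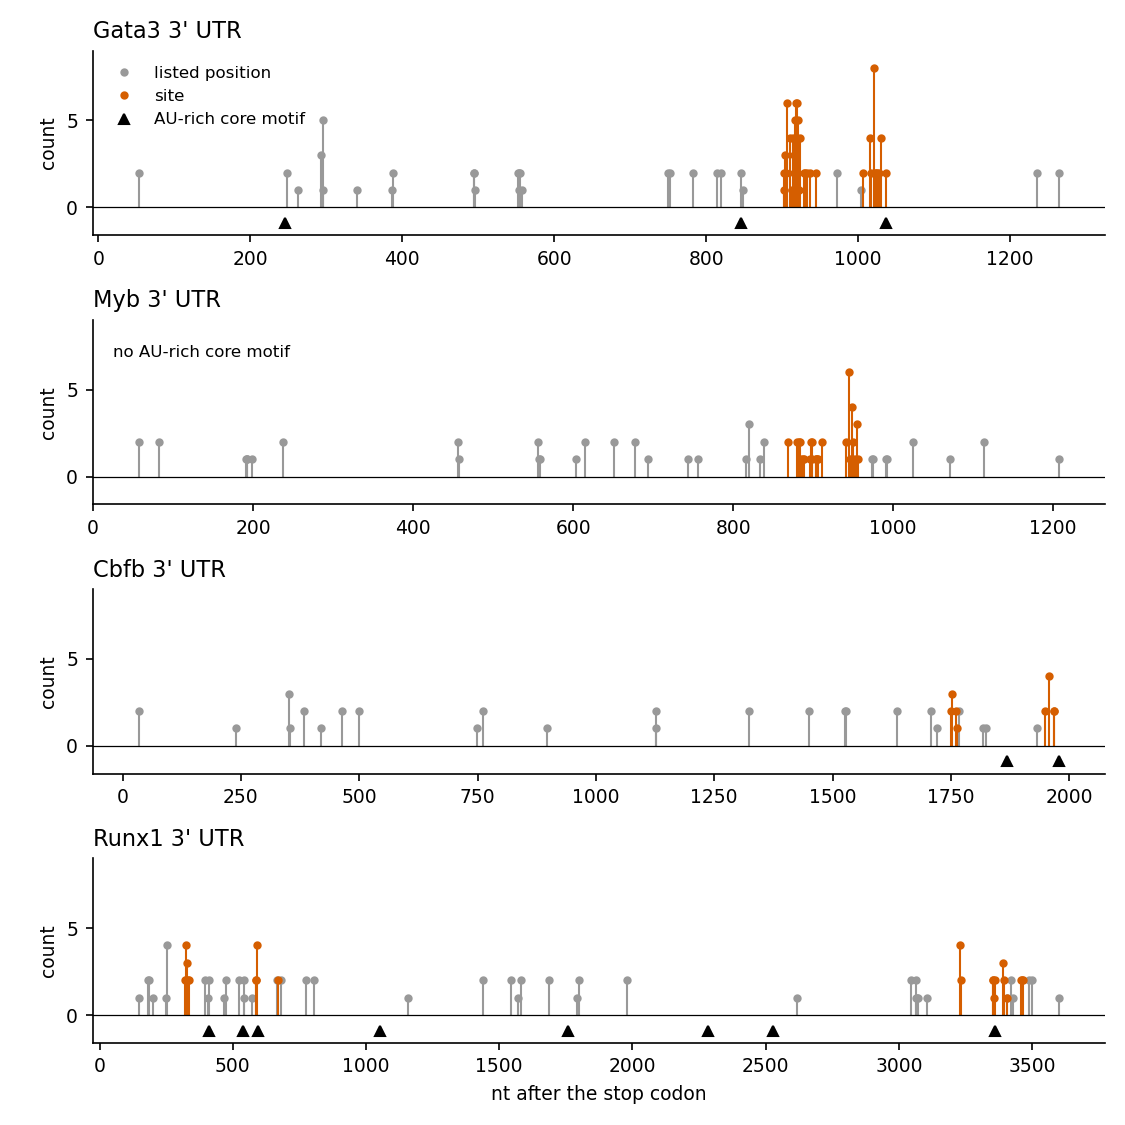
Count at each listed 3′ UTR position of Gata3, Myb, Cbfb and Runx1 by distance in nt after the stop codon; grey marks are listed positions, orange marks are sites and triangles are TATTTA copies. Gata3, Myb and Cbfb sites sit in 2 groups late in the UTR, with the highest Gata3 count of 8 beside the last triangle, Myb has no triangle, and Runx1 sites lie at both ends.

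Myb, on the minus strand of chromosome 10 (21124935 to 21160984), was the densest of the 6 genes in introns, the coding sequence and the 5′ UTR. Its 3′ UTR of 1238 nt has no TATTTA, and still had 56 positions with 88 counts. All 25 sites lay in 2 clusters on or near runs of T, of 23 counts about 911 nt and of 21 counts about 945 nt after the stop codon. TTTTTT was near 24 of the 25 sites (96%, 80.5 to 99.3), whereas 16.3% of the 3′ UTR bases lie so close to it and 32.1% of 3′ UTR sites in all genes did. Relative to bases the share was 5.88 times in Myb, against 8.15 times in all genes. The longer cluster has at most 2 counts at a position and the other up to 6.
Myb 3′ UTR, chr10:21125242-21125271: TTTTTTTTgttgttattgtcgATTTAtaaa
Myb 3′ UTR, chr10:21125208-21125237: ttgcacttctttttcTTTTTTTgggagatt
The Myb 5′ UTR had 21 positions with 38 counts in 266 nt, 143 per kb (101 to 196), and 14 of the 21 (66.7%, 45.4 to 82.8) were sites, against 21% of 5′ UTR positions in all genes. All 14 lay in a cluster of 30 counts, whose highest count was 4. Of the 14, 11 (78.6%) lay within 20 nt of a repeat of 2 to 4 nt, against 7.87% of 5′ UTR sites in all genes. Soft-masked sequence held 71.4% of the 14, against 59.3% in all genes.
In the coding sequence, with 24 positions and 49 counts, a site with 6 counts lay on the last base of exon 7, at position 21148778. The start of intron 7 is next to it, and the intron position 21148775 had a count of 1.

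Myb had 239 intron positions with 401 counts, and part of them lay next to exons. The 40 nt before a splice acceptor, where the pyrimidine tract lies that splicing factors recognise, held 35 of the 239 positions (14.6%, 10.7 to 19.7) and 24 of the 94 intron sites (25.5%, 17.8 to 35.2). Those windows make up 1.86% of Myb intron bases, so that positions there were 7.88 times their share of bases. Over all genes 9.17% of intron sites lay there, and positions were 9.05 times the windows' 0.724% of bases. For positions, relative to the windows' share of bases, Myb was thus not above all genes. That ratio was not computed for sites or counts. In Runx1, where the windows make up 0.111% of intron bases, 3 of 705 positions lay there (3.84 times) and 0 of 349 sites, with a Wilson interval of up to 1.09%. Of 15 Myb acceptors, 12 had a listed position in these 40 nt (80%), against 9.44% of acceptors over all genes, and most had few counts. These shares of acceptors are not adjusted for the count of a gene. The acceptor of intron 11 had 38 counts in 11 sites (chr10:21142095-21142122), with 6 at position 21142103, 17 nt before the exon. That of intron 6 had 12 counts in 7 sites, and the remaining 10 had 1 to 5 counts each. Without these acceptors' sites in any gene, the density ratio of 3′ UTR over intron for the 6 genes was 7.52. The sequence around the intron 11 acceptor is shown with the AG at the end of the intron in capitals.
Myb intron 11, chr10:21142083-21142112: tattctctgcttcttctcttctttAGcttt
A CT repeat in intron 10 held a further 15 counts, 109 nt before the next acceptor, and TATTTA was near 6 of the 94 Myb intron sites (6.38%, 2.96 to 13.2).
Myb intron 10, chr10:21143181-21143210: tctctctctctctctctctctctctctctc

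**Figure D4:**
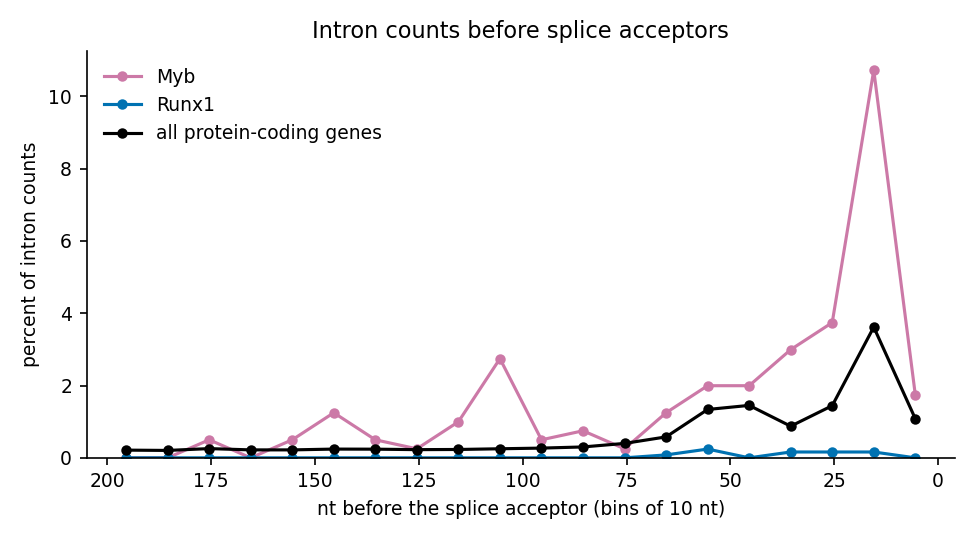
Percent of a gene's intron counts in bins of 10 nt before splice acceptors, for Myb, Runx1 and all protein-coding genes; the acceptor is at the right. Myb peaks at 10.7% between 11 and 20 nt before the exon, all genes reach their highest value in the same bin, and Runx1 reaches at most 0.242%.

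Over the 6 genes together, the share of sites near TATTTA was lower than the share over all genes in both segments. TATTTA was within 20 nt of 16 of 90 3′ UTR sites (17.8%, 11.2 to 26.9), against 28.7% in all genes, and of 54 of 477 intron sites (11.3%, 8.78 to 14.5), against 21.9%. By gene the 3′ UTR share was 31.8% in Runx1, 25% in Cbfb and 21.9% in Gata3. It was 0 of 3 sites in Runx2 and 0 of 25 in Myb, whose 3′ UTR has no TATTTA copy. The 3′ UTR share rests on 14 merged clusters, of which 28.6% were near TATTTA (11.7 to 54.6). That merged share was not computed over all genes. Without Runx1 the intron share was 5.47%. With the window narrowed to 10 nt the shares were 6.67% in 3′ UTRs and 6.71% in introns. Over bases, 4.29% of 3′ UTR and 1.62% of intron sequence lies within 20 nt of TATTTA. A run of 6 T was near 52 of the 90 3′ UTR sites (57.8%, 47.5 to 67.5), against 32.1% in all genes, 22 of them in Gata3 and 24 in Myb, and near 13.8% of intron sites. Such runs also lie near more of the 3′ UTR bases of these genes, 9.31% against 3.94% in all genes. Relative to bases the 3′ UTR share was 6.21 times, below the 8.15 times of all genes. Of the 90 3′ UTR sites 82.2% were in soft-masked sequence, against 59.4% in all genes.

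**Figure D5:**
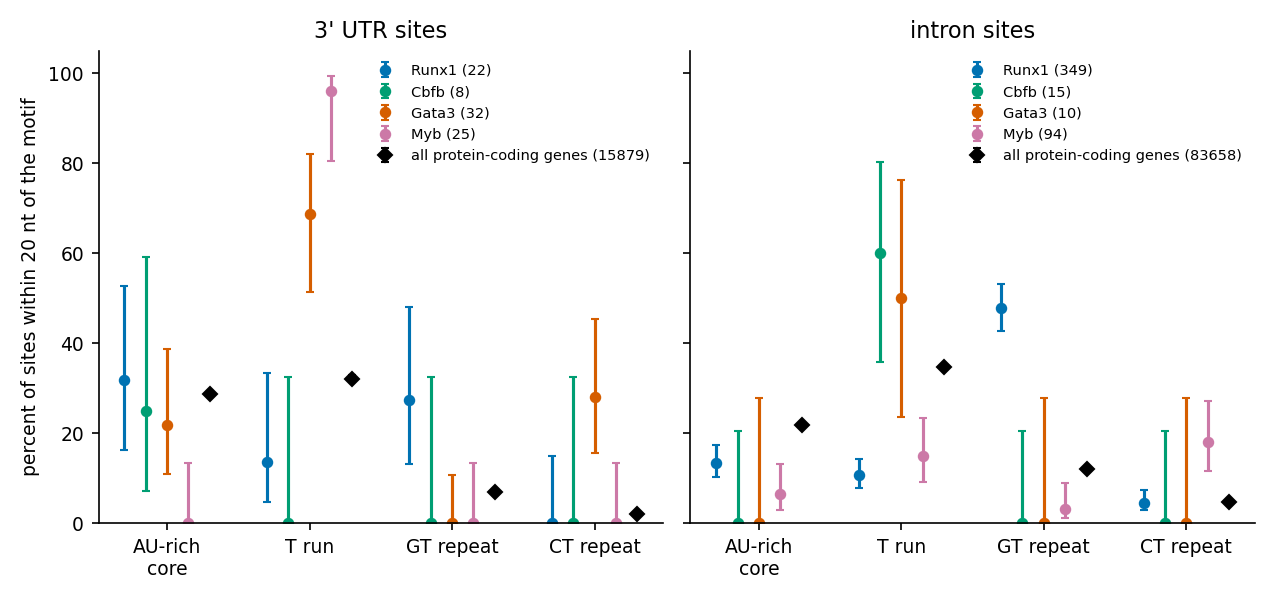
Percent of 3′ UTR sites (left) and intron sites (right) within 20 nt of TATTTA (AU-rich core), TTTTTT (T run), GTGTGT (GT repeat) and CTCTCT (CT repeat), with 95% Wilson intervals and the number of sites in the legend; Runx2, with 12 sites, and Runx3, with none, are not drawn. T runs lead in Myb and Gata3 3′ UTRs (96% and 68.8%), and the GT repeat leads in Runx1 introns (47.9%).

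Seen from the motif, the share of TATTTA copies with a crosslink beside them was higher in these genes than over all genes. Of 19 copies in the 3′ UTRs, 8 had a listed position within 20 nt (42.1%, 23.1 to 63.7), against 19.7% in all genes, and 4 had a site. Of 287 intron copies 32 did (11.1%, 8.01 to 15.3), against 5.28%. By gene, the intron copies with a position were 22 of 88 in Runx1 (25%), 6 of 12 in Myb, 3 of 27 in Cbfb, 1 of 136 in Runx2, and 0 of 15 in Gata3 and 0 of 9 in Runx3. These shares are not adjusted for the count of a gene. Copies lie unevenly: Gata3 has 2.32 per kb of 3′ UTR, Runx1 1.70, Runx2 1.28, Cbfb 0.992, Runx3 0.463 and Myb none, against 0.710 in all genes. Outside soft-masked sequence the intron share was 7.23%, a setting not computed over all genes. With sites in place of positions the share was 6.27% in introns and 21.1% in 3′ UTRs. The like counts over all genes were 13242 of 553224 intron copies and 1371 of 15302 3′ UTR copies, lower shares in both segments.

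Genes tied to these factors were set beside them from lists chosen with earlier results of these data known. Of 18 partners and regulators (corepressors, coactivators and kinases that RUNX, GATA or MYB proteins bind) all were listed, 9 had a 3′ UTR site (18% of all protein-coding genes did) and 15 an intron site (56.2% of all did), with a median of 141 counts against 14 over all protein-coding genes. Their highest 3′ UTR site counts were 26 in Cbfa2t2, a corepressor of the ETO family, 12 in Chd4, a chromatin remodeller, and 9 in Ncor1, a nuclear corepressor, all below the 99 of Gata3. Of 7 paralogs, Gata1, Gata2, Gata4, Gata5 and Gata6 had no listed position, and Mybl1 and Mybl2 had 15 and 13 counts and no site. Of 20 genes that these factors regulate in T cells, 18 were listed (Spi1 and Eomes were not) and 10 had a 3′ UTR site, again beside 18% of all genes. Rag1, Bcl11b and Cd3e led them, with 3′ UTR site counts of 1422, 1413 and 238. The shares of genes with a site in these lists are not adjusted for the count of a gene.

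By the shares of site counts over 5′ UTR, coding sequence, intron and 3′ UTR, the gene nearest to each member with at least 20 sites was found among 471 genes with at least 50 sites. Runx1 was nearest to Cyth1 (3′ UTR share 6.49% and 6.4%), Cbfb to Stk4 (42.9% and 44.0%) and Gata3 to Ago2 (80.5% and 78.6%). Myb was nearest to Stag2 (15.4% and 16.2%), at a larger summed difference of the 4 shares (0.163, against 0.00187 for Runx1), since Myb has site counts in the 5′ UTR. Over the 6 genes 17.2% of site counts lay in the 3′ UTR (15.2 to 19.4), against 17.7% in all protein-coding genes, and without Runx1 the share was 34.7%.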

How the data were processed

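The series holds ZFP36L1 iCLIP libraries from thymocytes (2 WT, 1 DCKO) and a single list of stranded positions. Which of the libraries entered that list, and whether the DCKO library did, is not stated in the sources used here. Per the submitters' processing notes, Bowtie and the build GRCm38 were used; the sources used here give no other step. The deposited value is a whole-number score with the strand as its sign, labelled as counts per the file headers, and its size was used as the count; the sources do not say whether copies were merged by the random barcode. A deposited score, the sum within 15 nt, equalled the recomputed sum at 100% of positions. The deposited FDR is a score too: it was 0 at 103576 positions and above 1 at 3825, so it served only as the authors' threshold (0.05). The deposited p-value was not used. Depth per library is unknown. A comparison of WT with DCKO had been planned for library counts and was not made.

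The list counts from 0: near coding exon edges 95.5% of labels matched GENCODE when read so, against 67.2% otherwise, and coordinates are given from 1. Of 12541 protein-coding names in the list, 11695 matched GENCODE vM21 by name, chromosome and strand. Segment labels are the authors'; lengths come from GENCODE and sequence from RefSeq GRCm38.p6. All 220 3′ UTR positions of the 6 genes lay in GENCODE 3′ UTRs. The motif TATTTA with its variants ATTTA and TATTTAT was sought, and so were TTTTTT and the repeats GTGTGT and CTCTCT. All were looked for within 20 nt of a position on its strand, with overlaps allowed. Clusters join positions within 15 nt. Nothing was tested for significance, since there is no replicate. Functions were checked on simulated sequence. Sequences shown are those of the strongest cluster of a segment with at least 6 counts; the second clusters, dense stretches and lone position were added after their values were seen. Some sequences are not reported here. The genes named are the members, up to 3 genes per list with the highest 3′ UTR site counts, and the nearest gene by site shares. The members and lists were chosen with earlier results of these data known. Python 3.11.15, pandas 2.3.3, numpy 2.4.6, scipy 1.17.1, pysam 0.24.0 and matplotlib 3.10.9 were used.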

Additional observations from a re-analysis of the deposited data

How the results depend on the processing

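No paired analysis was possible because no library is named for any value. Of 59 alternatives to values with an interval, 37 stayed within that of the main value. The number of genes with a 3′ UTR site, 5, was 6 over all listed positions and 4 at a count of at least 2. The share of site counts in 3′ UTRs was 12.8% outside soft-masked sequence and 34.7% without Runx1. The density ratio was 5.31 outside soft-masked sequence, 3.65 with sites merged and 18.2 without Runx1. It was 11.1 without intron sites at acceptors or within 20 nt of tandem repeats, a setting chosen after seeing the data. The 3′ UTR share near TATTTA was 6.67% with a window of 10 nt, 11.1% for TATTTAT and 28.6% with sites merged. The intron share near TATTTA was 6.01% over all positions, 6.71% and 16.8% with windows of 10 and 50 nt, 6.72% outside soft-masked sequence and 5.47% without Runx1. The share of TATTTA copies with a site in place of a position was 21.1% in 3′ UTRs and 6.27% in introns. In introns it was 17.8% with a window of 50 nt, 5.99% for ATTTA, 15.4% for TATTTAT and 7.23% outside soft-masked sequence. With counts of at least 2, positions that were sites made up 49.3% in 3′ UTRs and 55.1% in introns. The cause of these shifts was not tested. Low counts limit Runx2 and Runx3 most, and without a library column no value has a replicate error.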
